A study of Mus musculus with 2 samples.

Results

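Some pancreatic beta cells carry the transcript of Pdyn, the gene of prodynorphin, and these cells are described here in the islets of virgin mice and of multiparous mice. Wild-type C57BL/6J females, 9 weeks old at the start, either went through 3 consecutive pregnancies (multipara) or were kept unmated to the same age (virgin), and islets were taken 3 weeks after the last delivery. The cells were dispersed with 0.25% trypsin and profiled with the 10x Chromium 3′ assay, which counts each captured RNA molecule once by its unique molecular identifier (UMI). Each group is a single library, and the labels do not give how many animals it pools (the study gives a minimum number per group, without saying of what), so that no value has a replicate check, no test was run, and the values describe the libraries rather than the conditions.

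Members were chosen by measured values. A beta cell had Ins1 and Ins2 (insulin) at 20% or more of its UMIs and the other islet hormones Gcg, Sst, Ppy and Pyy together under 1%, and a Pdyn cell was a beta cell with at least 2 UMIs of Pdyn and fewer than 5 UMIs of the stress gene Nupr1. This gave 133 Pdyn cells among 1678 beta cells of the virgin library and 158 among 1448 of the multipara library, in all 291 of 3126 beta cells, of 7765 cells past the filter and of 10538 barcodes. They were compared, within each library, with beta cells that had no Pdyn UMI and the same limit on Nupr1 (1130 virgin and 549 multipara comparison cells). Pdyn, Nupr1, the hormones and the mitochondrially encoded genes entered this choice and are not reported as differences. The libraries shared 7 barcodes, none of them that of a Pdyn cell, and a doublet caller marked 1 virgin and 5 multipara Pdyn cells.

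Prodynorphin is cut by prohormone convertases inside secretory granules into dynorphins and neoendorphins, opioid peptides that act mainly on the kappa opioid receptor. It is best known as a neuropeptide precursor of the brain and spinal cord. Beta cells hold the same processing machinery, since they make insulin from proinsulin and also package granins and other peptides.

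Pdyn (ENSMUSG00000027400) lies on the minus strand of chromosome 2, from 129686565 to 129699844 (GRCm38). Reference sequences from before the RefSeq starts of 5 genes follow. In the annotation used for the gene coordinates, 5 bases of the Pdia6 stretch and 7 of the Mt1 stretch lie in exons. The stretch before the outer RefSeq start of Pdyn (chr2:129699939-129700088, minus strand) is given because this gene defines the cells. Those of Derl3 (chr10:75893202-75893300), Creld2 (chr15:88819480-88819578) and Pdia6 (chr12:17266451-17266549), all on the plus strand, come from genes of the ER folding and stress list (here the ER folding list), of which Derl3 had the highest ratio in Pdyn cells and Creld2 and Pdia6 were picked after their values were seen. That of Mt1 (chr8:94179046-94179088, plus strand) comes from one of the genes lowest in Pdyn cells. All are RefSeq sequences of GRCm38.p6, 5′ to 3′ in the direction of the gene. Capitals mark the ER stress response element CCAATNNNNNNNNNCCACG, or its reverse complement, in Derl3, Creld2 and Pdia6, and the metal response motif TGCACNC in Mt1.
Pdyn: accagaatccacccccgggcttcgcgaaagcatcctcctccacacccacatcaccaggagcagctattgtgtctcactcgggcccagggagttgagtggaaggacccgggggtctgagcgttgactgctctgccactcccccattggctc
Derl3: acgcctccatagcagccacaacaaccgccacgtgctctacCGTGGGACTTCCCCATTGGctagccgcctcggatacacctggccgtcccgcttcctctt
Creld2: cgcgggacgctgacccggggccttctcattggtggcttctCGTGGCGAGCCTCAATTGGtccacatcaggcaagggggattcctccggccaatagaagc
Pdia6: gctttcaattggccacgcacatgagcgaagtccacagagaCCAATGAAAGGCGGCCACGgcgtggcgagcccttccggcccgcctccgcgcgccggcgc
Mt1: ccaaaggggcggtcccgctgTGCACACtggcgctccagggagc

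In the 250 bases before the start, on either strand, the ER stress response element was found in 37 of 32851 RefSeq mouse promoters (0.113%) and in 9 of 32 promoters of the ER folding list, of which 29 genes were matched. The 9 were those of Calr, Canx, Creld2, Derl3, Dnajc3, Hsp90b1, Hspa5, Pdia6 and Syvn1. The metal response motif was in 10.4% of all promoters, and in those of Mt1 and Mt2 among 8 promoters of the metallothionein and ferritin list. Neither motif, nor the cyclic AMP half-site TGACG found in 17.8% of promoters, was in this window before either of the 2 RefSeq starts of Pdyn. These matches describe letters only.

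Pdyn was unevenly spread among the cells that carried it. The 133 virgin cells held 901 Pdyn UMIs, with a median of 4 and a highest value of 140 in 1 cell. The 158 multipara cells held 1154, with a median of 4 and a highest value of 43. The medians were thus the same, while the upper end differed. More than 10 UMIs were found in 18 virgin and 29 multipara cells, and 20 or more in 4 and 12. The 10 cells richest in Pdyn held 34.3% of the Pdyn UMIs of the virgin Pdyn cells and 26.9% of those of the multipara Pdyn cells. Exactly 2 UMIs, the lowest value that admits a cell, were found in 34 and 46 cells, and just outside the rule 111 and 89 beta cells with Nupr1 below the limit had 1 UMI. Another 12 virgin and 55 multipara beta cells had at least 2 Pdyn UMIs but were left out for Nupr1, 3 and 14 of them with 5 or 6 Nupr1 UMIs, while 5 and 15 Pdyn cells had 3 or 4.

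**Figure D1:**
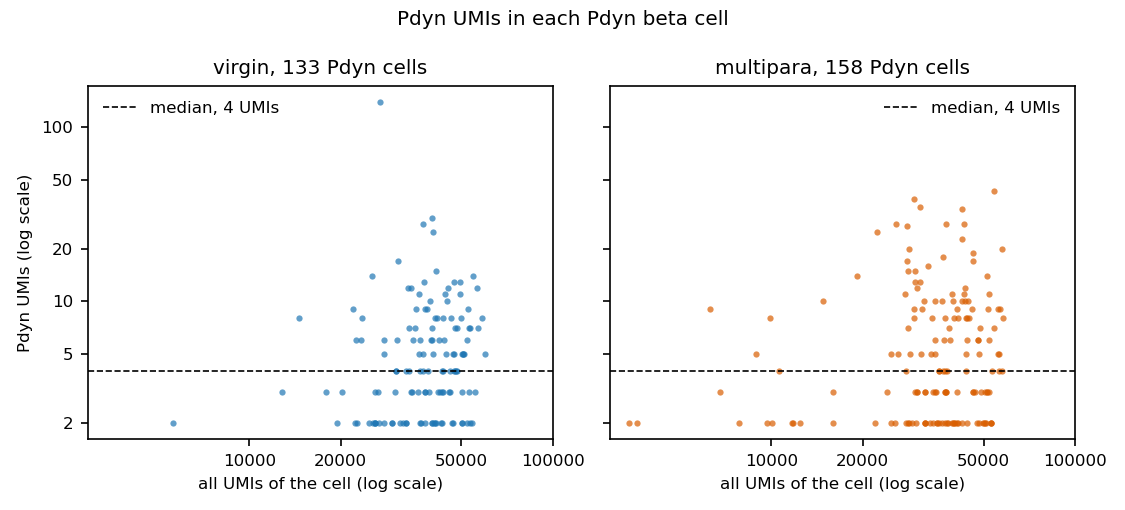
Pdyn UMIs (vertical, log scale) against all UMIs (horizontal, log scale) for each of the 133 virgin and 158 multipara Pdyn cells, 1 point per cell, with the median as a dashed line. Most cells sit between 2 and 10 Pdyn UMIs in both libraries, and 1 virgin cell stands at 140.

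Pdyn cells made up 7.93% of virgin beta cells (95% interval 6.68 to 9.32) and 10.9% (9.35 to 12.6) of multipara beta cells. This and all later intervals are exact 95% intervals (Clopper-Pearson for shares, Poisson for levels, conditional binomial for ratios), and cover counting error only. A deeper cell has more chances to show 2 UMIs of Pdyn, so every beta cell was also thinned to 10000 UMIs, leaving out 169 virgin and 156 multipara cells below that depth. The rule then took 61 of 1509 virgin cells, 4.04% (3.11 to 5.16), and 88 of 1292 multipara cells, 6.81% (5.50 to 8.32). The limit on Nupr1 bears on the libraries unequally, since it removed 304 virgin and 652 multipara beta cells. Among the beta cells it left, Pdyn cells were 9.68% (8.17 to 11.4) in virgin and 19.8% (17.1 to 22.8) in multipara, and with no such limit 8.64% (7.34 to 10.1) of virgin and 14.7% (12.9 to 16.6) of multipara beta cells had 2 or more Pdyn UMIs. The multipara share was the higher one each time, by factors that differed with the denominator.

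Over all beta cells, Pdyn stood at 21.5 (20.2 to 22.8) UMIs per 1000000 (CPM) in the virgin library, and the multipara library had 35.2 (33.5 to 36.9). Free RNA in the droplets was gauged in alpha cells, which should hold little Pdyn. Cells with Gcg at 5% or more and insulin under 5% of UMIs had 1.01 CPM in both libraries, and 1.06% of 1134 virgin and 1.53% of 720 multipara alpha cells had a Pdyn UMI, at median depths of 16503 and 17755.5 UMIs. In beta cells 16.0% and 23.8% had one, at medians of 30621 and 33245.5 UMIs. Pdyn in beta cells was therefore above the level found in alpha cells of the same library. After thinning to 10000 UMIs the shares with a Pdyn UMI were 9.41% and 14.4% of beta cells and 0.609% and 1.23% of alpha cells.

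The Pdyn cells were deeper than the comparison cells. Their median was 39854 UMIs in virgin and 37258.5 in multipara, against 28938 and 27753 in the comparison cells. The insulin and mitochondrial shares of a cell decide whether it enters either group and are not compared. Because of the depth difference, each ratio was also taken against comparison cells weighted to the depth of the Pdyn cells over 5 depth classes, here called depth-matched. In what follows, levels are given for Pdyn against comparison cells, and of paired values the first is that of the virgin library.

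Cpb2, Fxyd6 and Defb1 had been proposed beside Pdyn as markers of these cells, and the data did not bear this out for Fxyd6 and Defb1. Cpb2, a carboxypeptidase of blood clot regulation, stood at 12.8 (9.90 to 16.3) against 6.85 (5.96 to 7.84) CPM in virgin and 9.07 (6.77 to 11.9) against 6.87 (5.54 to 8.43) in multipara. Its log2 ratios were 0.90 (0.48 to 1.31) and 0.40 (-0.12 to 0.91), from 66 and 52 UMIs in Pdyn cells, so that it was higher in virgin while the multipara interval included 0, and it averaged too low a level to enter the comparison of all genes. Fxyd6, a regulator of the sodium pump, was at 74.7 against 91.4 CPM in virgin and 75.3 against 72.7 in multipara, log2 ratios of -0.29 (-0.45 to -0.14) and 0.05 (-0.11 to 0.22). Defb1, a beta-defensin, was at 72.2 against 115 CPM in virgin and 53.4 against 54.9 in multipara, log2 ratios of -0.67 (-0.83 to -0.51) and -0.04 (-0.24 to 0.15). Neither was higher in the Pdyn cells of both libraries, and the cells are called here by Pdyn alone.

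For the comparison of all genes, UMIs were summed over the Pdyn cells and over the comparison cells of each library. A gene was called higher or lower when its CPM differed by at least 1.5-fold in the same direction in both libraries, among the 5450 genes whose CPM averaged 10 or more over the 4 sums. By this limit 20 genes were higher (0.367%) and 47 lower (0.862%) in Pdyn cells, while 787 (14.4%) were higher and 3055 (56.1%) lower in both libraries at any size. The median log2 ratio of all genes was -0.13 in virgin and -0.09 in multipara, and -0.02 and 0.00 under TMM scaling, by which 28 genes were higher and 24 lower. Counts at any size moved with this shift, to 1646 higher and 1849 lower under TMM (30.2% and 33.9%) and 1926 higher and 1573 lower under median-of-ratios factors. The TMM counts are therefore given wherever counts at any size are given for a list, and ratios no larger than the shift have no fixed sign. With depth-matched comparison cells 6 of the 20 higher genes (Dapl1, Gm27168, Hist3h2ba, Prom1, Tmem59l and Ubr4) and 15 of the 47 lower genes were still called. Of the lower genes named below, these were Cib3, Gad1, Gatm, Msln, Mt1, Mt2 and T2. The other called genes named below were no longer called after depth matching. The ratios come from the same cells that the rule on Pdyn divided, and are descriptions.

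**Figure D2:**
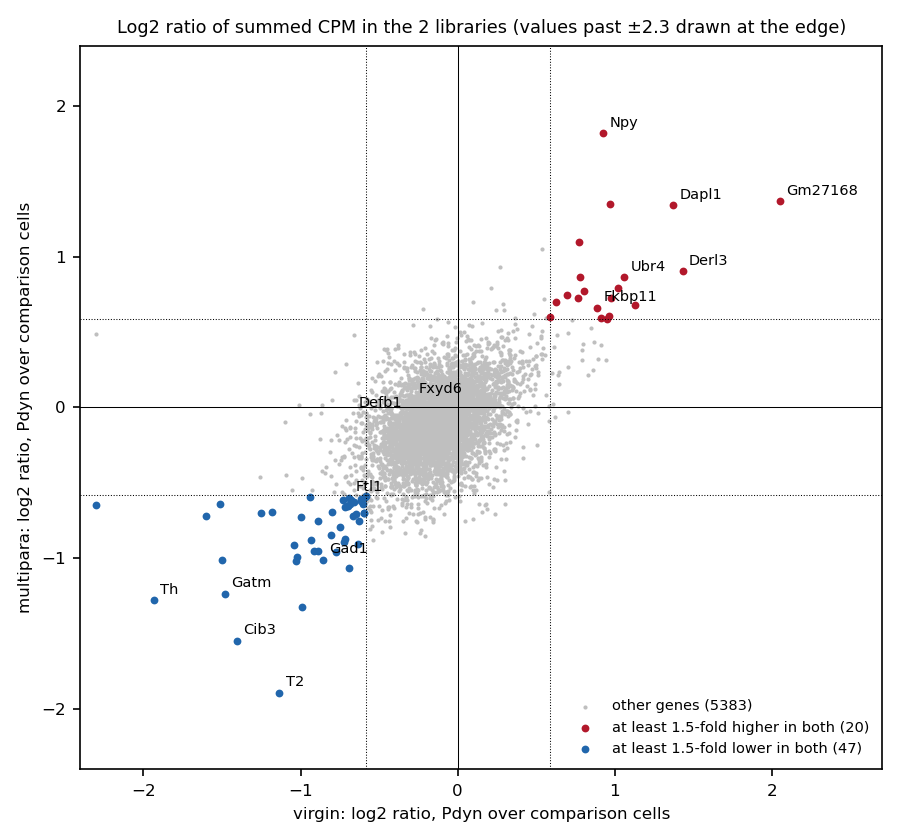
Log2 ratio of CPM, Pdyn over comparison cells, in the virgin (horizontal) and multipara (vertical) library for the 5450 genes compared, 1 point per gene, with dotted lines at 1.5-fold and values past the edge drawn at the edge. The 20 red genes, led by Gm27168 (2.05 and 1.37), Dapl1 (1.37 and 1.34) and Npy (0.92 and 1.82), are at least 1.5-fold higher in both, and the 47 blue genes, among them Th (-1.93 and -1.28), are at least 1.5-fold lower.

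Among the genes higher in Pdyn cells, Dapl1 (death-associated protein-like 1; ENSMUSG00000026989, chromosome 2, 59484653 to 59505020) had nearly the same ratio in both libraries. It stood at 60.5 (54.0 to 67.6) against 23.4 (21.7 to 25.2) CPM in virgin and 39.9 (34.9 to 45.5) against 15.8 (13.7 to 18.0) in multipara. These intervals did not overlap between Pdyn and comparison cells in either library, and the log2 ratios were 1.37 (1.18 to 1.57) and 1.34 (1.07 to 1.62), or 1.24 and 1.11 after depth matching. In cells thinned to 10000 UMIs, 37.9% of virgin and 28.0% of multipara Pdyn cells had a Dapl1 UMI, against 18.3% and 12.6% of comparison cells.

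Gm27168, a long noncoding RNA gene of the annotation, had log2 ratios of 2.05 (1.61 to 2.48) and 1.37 (1.16 to 1.58), from 14.9 against 3.60 CPM in virgin and 66.8 against 25.8 in multipara, and of 1.29 and 0.88 after depth matching. Its level also differed between the libraries, in both kinds of cell. Ubr4, a ubiquitin ligase of the N-degron pathway, was at 80.5 against 38.6 CPM in virgin and 103 against 56.7 in multipara, log2 ratios of 1.06 and 0.86. Fh1, the fumarate hydratase of the citrate cycle, was at 103 against 50.7 and 126 against 73.0 CPM, log2 ratios of 1.02 and 0.79. Fh1 was the only gene called among 24 compared of the glycolysis and citrate cycle list, beside 0.367% of all genes called higher. In that list 15 (62.5%) were lower and 5 (20.8%) higher in both libraries at any size, near the 56.1% and 14.4% of all genes. Under TMM 7 were higher and 10 lower.

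Further genes called higher had varied roles. Gng12, a G protein gamma subunit and the most abundant of the higher genes, was at 311 against 165 CPM in virgin and 319 against 211 in multipara, log2 ratios of 0.91 (0.83 to 0.99) and 0.59 (0.51 to 0.68). P2ry1, a purine receptor, had log2 ratios of 0.69 and 0.74. It was the only gene called among 13 compared of the list of receptors that control secretion, beside 0.367% of all genes called higher. In that list 4 (30.8%) were higher and 5 (38.5%) lower in both libraries at any size, beside 14.4% and 56.1% of all genes. Under TMM 5 were higher and 3 lower. Rgs4, which shortens G protein signals, had log2 ratios of 0.55 and 0.72 and so missed the limit in virgin. Tubb3, a tubulin typical of neurons, had 0.81 and 0.77, and Prom1, a membrane glycoprotein, 0.76 and 0.73. The ratios of Tmem59l were 0.98 and 0.73, those of C2cd4a 1.13 and 0.68, and those of Noct, the circadian gene of nocturnin, 0.59 and 0.60. Gpx3, a secreted glutathione peroxidase, had 0.73 and 0.58, just short of the limit in multipara.

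**Figure D3:**
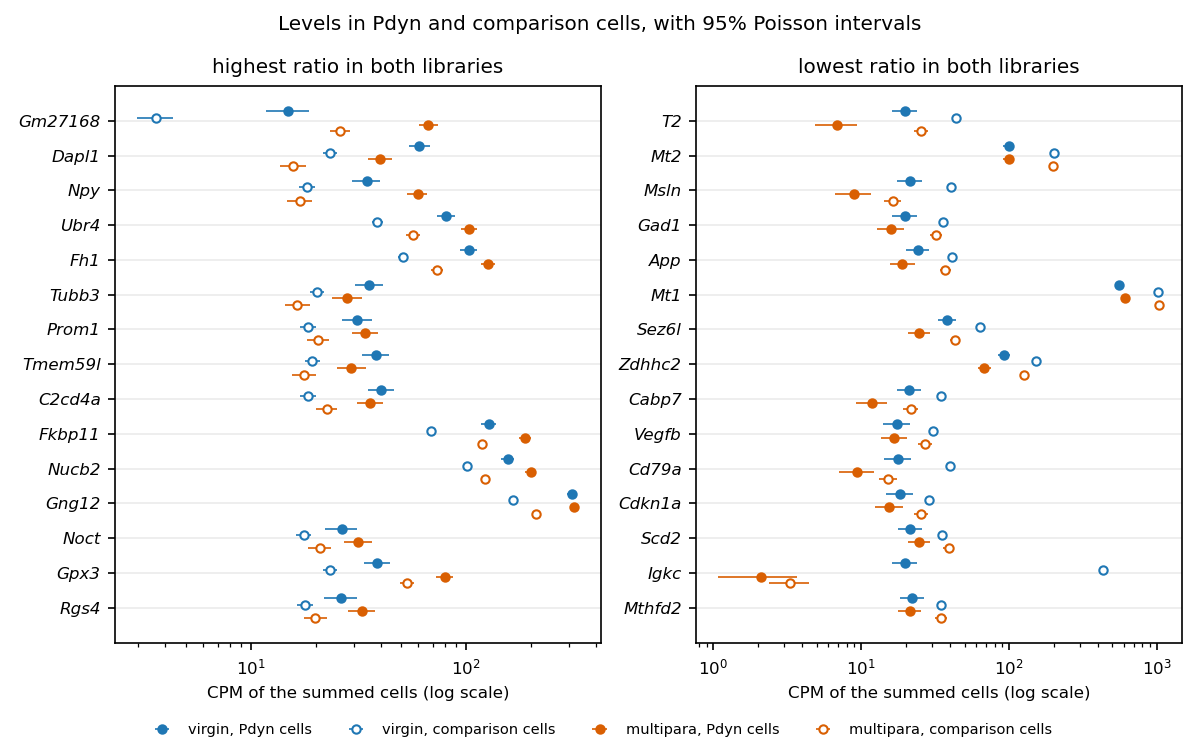
CPM (log scale) of the 15 genes with the highest and the 15 with the lowest ratios shared by both libraries, in Pdyn cells (filled) and comparison cells (open) of virgin (blue) and multipara (orange), with 95% Poisson intervals as bars. Gng12 reaches 311 and 319 CPM in Pdyn cells, and Mt1 stands at 552 and 613 CPM there against 1021 and 1032 in comparison cells.

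Of the other opioid genes, Pomc, the precursor of beta-endorphin and melanocortins, was the only one abundant enough to compare. It had 83 UMIs in virgin and 103 in multipara Pdyn cells, 16.1 against 13.7 CPM in virgin and 18.0 against 13.5 in multipara, log2 ratios of 0.23 and 0.41 that did not reach 1.5-fold. Penk, the proenkephalin gene, had 0 UMIs in virgin and 5 in multipara Pdyn cells. Pnoc and the 4 opioid receptor genes Oprm1, Oprd1, Oprk1 and Oprl1 had no UMI in Pdyn cells of either library, which at the summed depth allows levels of up to 0.582 CPM in virgin and 0.523 CPM in multipara. Transcripts of the receptors were thus not detectable in the Pdyn cells at this depth.

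Other peptide genes of the granule were mixed, with 2 of 8 genes compared called higher, beside 0.367% of all genes, and none lower. Nucb2, the precursor of nesfatin-1, stood at 156 against 101 CPM in virgin and 199.8 against 123 in multipara, log2 ratios of 0.63 (0.51 to 0.74) and 0.70 (0.59 to 0.81). Npy, the neuropeptide Y gene, had log2 ratios of 0.92 and 1.82, but 1 virgin Pdyn cell held 62.9% of its 178 UMIs. Without the cell richest in Npy in each of the sums, the ratio was -0.27 in virgin and 1.95 in multipara, so that the virgin value rested on a single cell. Noct and Adam32, the latter named after its values were seen, were also no longer called without their richest cell. Chgb, a granin, was at 833 against 701 and 1306 against 968 CPM, log2 ratios of 0.25 and 0.43. Ucn3, the urocortin of mature beta cells, had -0.33 and -0.29, Scg2 -0.20 and -0.05, Scg3 0.12 and 0.07, and Iapp, the amylin gene, -0.17 and 0.01.

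Genes that serve the cutting and trimming of prohormones, prodynorphin included, were mixed as a list, and none reached 1.5-fold in both libraries. Pcsk1 and Pcsk2, the prohormone convertases, had log2 ratios of 0.53 and 0.36 and of 0.23 and 0.25, and Cpe, the carboxypeptidase that removes the remaining basic residues, 0.31 and 0.30. Pam, which amidates peptides, had 0.33 and 0.14, and Pcsk1n, which encodes the convertase inhibitor proSAAS, -0.24 and -0.14. Of the 10 genes of this list compared, 4 were higher and 4 lower in both libraries at any size, and none was called.

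Genes of the ER folding list, which covers protein folding and stress of the endoplasmic reticulum (ER), were mostly on the higher side in Pdyn cells, few of them by much. Beside folding genes the list holds stress genes such as Asns, Atf4, Chac1, Ppp1r15a and Trib3. Of 35 genes compared, 23 were higher and 6 lower in both libraries at any size (29 higher and 4 lower under TMM), 65.7% and 17.1%, beside 14.4% and 56.1% of all genes, and 1, Derl3, was called. The median log2 ratio of the list was 0.25 and 0.15, which is 0.38 and 0.25 above that of all genes in virgin and multipara. With depth-matched cells the median of the list was 0.24 and 0.12, beside -0.06 and -0.02 for all genes. The list was chosen with earlier results of these data known, so that its counts and medians are no independent evidence of a direction.

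Derl3, which helps move misfolded proteins out of the ER, was at 15.5 (12.3 to 19.3) against 5.75 (4.93 to 6.66) CPM in virgin and 25.8 (21.8 to 30.3) against 13.8 (11.9 to 16.0) in multipara, log2 ratios of 1.43 and 0.90 that were 0.83 and 0.48 after depth matching. Hspa5, the main ER chaperone BiP, had log2 ratios of 0.31 and 0.15, Hsp90b1 0.25 and 0.13, Calr 0.39 and 0.24, Manf 0.28 and 0.19, and Ero1lb, a beta cell oxidase of disulfide formation, 0.43 and 0.22. Creld2 and Pdia6, whose promoter stretches are printed beside that of Derl3, had 0.79 and 0.38, and 0.54 and 0.32. Among the genes whose promoters held the ER stress response element, Canx had -0.14 and -0.22, or 0.01 and -0.11 under median-of-ratios factors. Fkbp11, a prolyl isomerase of the ER (ENSMUSG00000003355, chromosome 15, 98724366 to 98728198), stood at 127 against 68.8 CPM in virgin and 188 against 119 in multipara, log2 ratios of 0.89 (0.76 to 1.01) and 0.66 (0.55 to 0.77), and Sdf2l1, an ER chaperone cofactor, had 0.80 and 0.42.

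Of 8 compared stress genes that the study had picked on these samples, 3 were higher and 5 lower in both libraries at any size. These were 37.5% and 62.5%, beside 14.4% and 56.1% of all genes. Under TMM 3 were higher and 3 lower. Their choice on these samples means that these counts are no independent evidence of a direction. Those higher were Fkbp11 and Sdf2l1 above and Ddit3, a factor of the unfolded protein response, at 0.35 and 0.13. Atf5, a transcription factor of the integrated stress response, had log2 ratios of -0.54 and -0.88, Hspa1a -0.03 and -0.34, Dnajb1 -0.17 and -0.27 and Atf3 -0.07 and -0.28, of which Hspa1a and Atf3 changed sign in virgin under TMM. In a list of ATF4 targets added after values were seen, 11 of 14 genes compared (78.6%) were lower in both libraries at any size, beside 56.1% of all genes, with 2 higher and 11 lower under TMM, and Mthfd2, a mitochondrial folate enzyme, was called lower, with log2 ratios of -0.65 and -0.71. The medians of this list were -0.27 and -0.32, against -0.13 and -0.09 for all genes. Because the list was added after values were seen, its counts and medians are no independent evidence either. Nupr1, a gene of the same response, is limited by the rule in both kinds of cell. In cells without any Nupr1 UMI, an alternative also added after values were seen, 15 genes were higher and 25 lower, 14 and 21 of them among the 20 and 47.

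**Figure D4:**
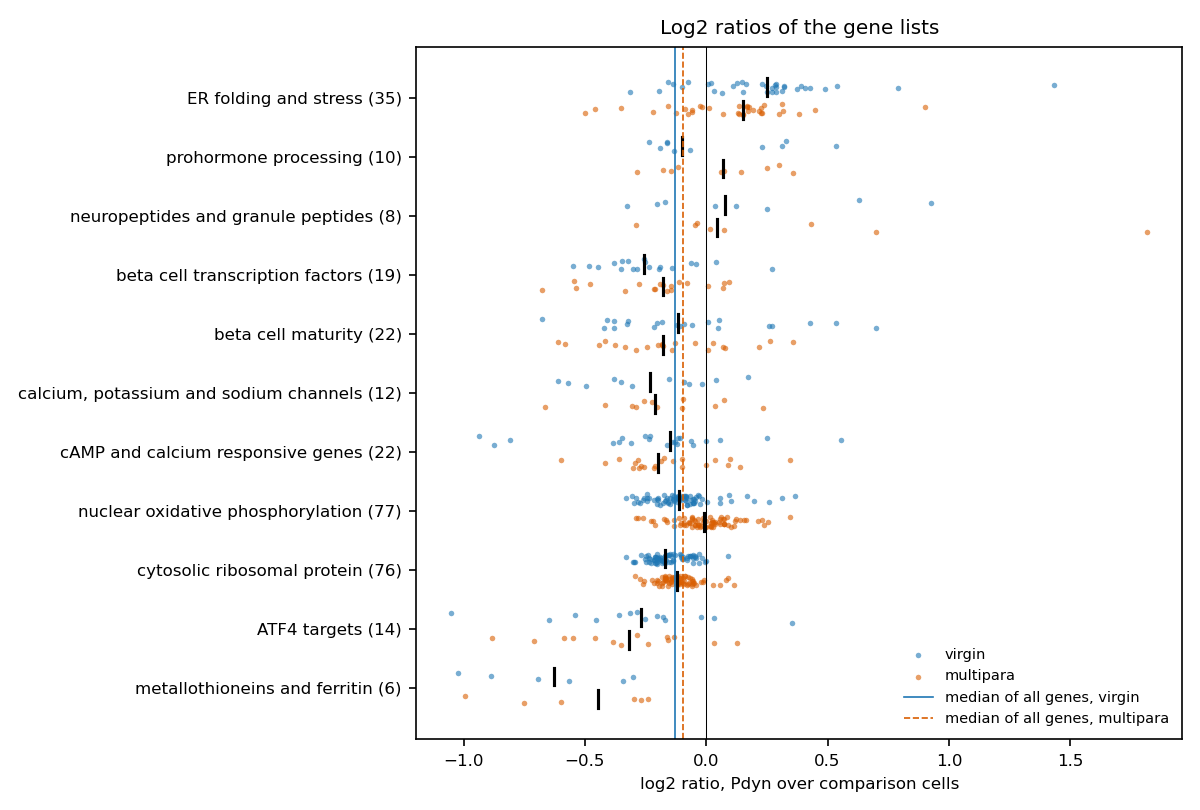
Log2 ratio, Pdyn over comparison cells (horizontal), for each compared gene of 11 lists, 1 point per gene, with virgin in blue and multipara in orange, the median of each list as a black bar and the medians of all genes as vertical lines. The ER folding list has its medians at 0.25 and 0.15, and the metallothionein and ferritin list at -0.63 and -0.45. The ATF4 list and the metallothionein and ferritin list were added after values were seen.

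Metal-binding genes were among the lowest in Pdyn cells. Mt1, a metallothionein (ENSMUSG00000031765, chromosome 8, 94179082 to 94180327), stood at 552 against 1021 CPM in virgin and 613 against 1032 in multipara, log2 ratios of -0.89 (-0.94 to -0.83) and -0.75 (-0.81 to -0.70). Mt2 had log2 ratios of -1.02 and -0.99, and Ftl1, the ferritin light chain, -0.69 and -0.60, from 952 against 1538 and 912 against 1382 CPM. Fth1, the ferritin heavy chain, had -0.30 and -0.24. All 6 genes compared of this list were lower in both libraries, also under TMM, beside 56.1% of all genes, and 3 were called, beside 0.862%. The list was added after values were seen, so that these counts are no independent evidence of a direction. The other member of the list, Mt3, was below the floor and had log2 ratios of 2.24 and 1.30. Depth matching left Mt1 at -0.71 and -0.68 and Mt2 at -0.78 and -0.86, while Ftl1 was no longer called. Ftl1 and Fth1 have many processed pseudogenes, so that their reads may be split or lost among copies.

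Of the genes of amine and GABA synthesis, 2 of the 4 compared were called lower, beside 0.862% of all genes. Gad1, which makes GABA, was at 19.8 (16.1 to 24.0) against 35.8 (33.7 to 38.0) CPM in virgin and 15.9 (12.8 to 19.5) against 32.0 (29.0 to 35.1) in multipara, log2 ratios of -0.86 and -1.01 that depth matching left at -0.84 and -1.15. Th, tyrosine hydroxylase, was at 3.88 against 14.8 and 6.45 against 15.7 CPM, log2 ratios of -1.93 (-2.66 to -1.29) and -1.28 (-1.83 to -0.77), from 20 and 37 UMIs. Th was no longer called after depth matching. Ddc, the decarboxylase that follows it in amine synthesis, had 0.03 and 0.16.

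Other genes lowest in both libraries had varied roles. App, the amyloid precursor protein, had log2 ratios of -0.77 and -0.96, Zdhhc2, a palmitoyltransferase, -0.73 and -0.89, Sez6l -0.75 and -0.80 and T2 -1.14 and -1.89. Cabp7, a calcium-binding protein, had -0.72 and -0.87, Vegfb, a vascular growth factor, -0.80 and -0.70, and Scd2, a fatty acid desaturase, -0.70 and -0.66. Cdkn1a, the cell cycle inhibitor p21, had -0.66 and -0.72, and 1 multipara Pdyn cell held 32.6% of its UMIs there. Msln, mesothelin, had -0.93 and -0.88, but 0.056 in multipara in cells without Nupr1. B2m, a subunit of class I antigen presentation, had -1.04 and -0.91, but -1.23 and -0.56 after depth matching, by which it was not called, and -1.92 in multipara with each cell weighted equally. Gatm, an enzyme of creatine synthesis, and Cib3, both chosen after their values were seen, had -1.48 and -1.24 and -1.40 and -1.55.

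Igkc and Cd79a, genes of B cells, were lower as well, at log2 ratios of -4.46 and -0.65, and -1.18 and -0.69, but in multipara neither passed 1.5-fold after depth matching (-6.21 and -0.44, and -0.81 and -0.29), and 1 comparison cell held 54.1% of the Igkc UMIs of the virgin comparison cells. Markers of other cell types were therefore summed. The 10 endothelial markers summed to 3.88 against 27.4 CPM in virgin and 5.93 against 27.4 CPM in multipara, with 2 and 1 of them at 0 in Pdyn cells. The 11 lymphocyte markers summed to 19.2 against 46.1 CPM in virgin and 10.8 against 15.5 CPM in multipara, with 7 at 0 in the Pdyn cells of each library. Both lists were thus lower in Pdyn cells. The 10 macrophage markers summed to 72.3 against 52.8 CPM in virgin and 98.0 against 85.9 CPM in multipara, most of it C1qa, at 58.2 against 37.2 and 86.8 against 73.9 CPM. The 10 mesenchymal markers summed to 0.776 against 3.38 CPM in virgin and 1.05 against 1.05 CPM in multipara, and the 11 acinar markers to 0.388 against 0.260 CPM in virgin and 0.174 against 2.24 CPM in multipara. The part of such cells, or of their free RNA, in the ratios of Pdyn cells was not tested. Markers of delta cells other than hormones summed to 44.6 against 62.5 CPM in virgin and 59.1 against 55.4 CPM in multipara, those of PP cells to 28.5 against 27.5 CPM in virgin and 24.1 against 23.4 CPM in multipara, and those of ductal cells to 699 against 685 CPM in virgin and 773 against 757 CPM in multipara. Markers of alpha cells other than hormones had the largest sums, 1775 against 1640 CPM in virgin and 1235 against 1296 CPM in multipara. Of the 3 compared, 2 were higher and 1 lower in both libraries at any size, also under TMM, and none was called. Their medians were 0.27 and 0.11.

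Of 19 transcription factors of beta cells compared, 15 were lower and 2 higher in both libraries at any size (78.9% and 10.5%, beside 56.1% and 14.4% of all genes), with 3 higher and 13 lower under TMM, and none was called, with medians of -0.26 and -0.18. Nkx6-1 had log2 ratios of -0.20 and -0.28, Pax6 -0.19 and -0.21, Neurod1 -0.30 and -0.19, and Insm1 -0.35 and -0.18, while Mafa, a factor of mature beta cells, had 0.27 and 0.01. Of 22 maturity genes compared, 13 (59.1%) were lower in both libraries at any size, near the 56.1% of all genes. Another 6 (27.3%) were higher, beside 14.4%, and under TMM 6 were higher and 9 lower. Ppp1r1a, a protein phosphatase inhibitor, was the one called, beside 0.862% of all genes called lower. It was at 278 against 444 CPM in virgin and 257 against 392 in multipara, log2 ratios of -0.68 and -0.61. Slc30a8, the granule zinc transporter, had -0.42 and -0.38, G6pc2 -0.18 and -0.05, and Prlr, the prolactin receptor, 0.26 and 0.03.

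Other lists held few called genes. Over all genes 0.862% were called lower, and 56.1% were lower and 14.4% higher in both libraries at any size. Under TMM 33.9% of all genes were lower and 30.2% higher. The shares lower at any size of the channel genes (58.3%) and of the nuclear oxidative phosphorylation genes (50.6%) were near the 56.1% of all genes. Of 12 channel genes compared, 7 (58.3%) were lower and none higher in both libraries at any size, and 3 higher and 7 lower under TMM, with medians of -0.23 and -0.21, or -0.05 and -0.04 after depth matching. Of 22 genes that respond to cyclic AMP or calcium, 16 (72.7%) were lower and 2 higher in both, and 3 higher and 12 lower under TMM, and Arc, an activity-induced gene, was called lower at -0.94 and -0.60, while Fos had -0.23 and -0.17 and Jun -0.14 and -0.10. In the list of genes induced by cell dissociation, which shares several of these, 16 of 20 compared (80.0%) were lower and 1 higher in both, and 3 higher and 12 lower under TMM. Cytosolic ribosomal protein genes were lower in both in 71 of 76 cases (93.4%) and higher in 2, but 16 higher and 43 lower under TMM, with medians of -0.17 and -0.12. Of 77 nuclear genes of oxidative phosphorylation, 39 were lower and 8 higher in both, which turned to 34 higher and 12 lower under TMM, with medians of -0.11 and -0.01. Of 7 cell cycle genes compared, Cdkn1a was the one called, and the D cyclins Ccnd2 and Ccnd1 had -0.03 and -0.11, and 0.49 and 0.62.

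Several levels differed along the number of Pdyn UMIs in a cell, a description that uses the same cells. Dapl1 was at 23.4 CPM in virgin beta cells with no Pdyn UMI, 34.3 with 1, 33.5 with 2, 61.7 with 3 to 5, 71.8 with 6 to 10 and 80.9 with more than 10. In multipara the same classes had 15.8, 30.7, 29.9, 37.4, 53.4 and 39.8 CPM. For Dapl1, cells with 1 Pdyn UMI, in neither group of the comparison, lay above the cells with none in both libraries. Ubr4 went from 38.6 to 119 CPM in virgin and from 56.7 to 125 in multipara between the lowest and the highest class, and Fkbp11 from 68.8 to 193 CPM in virgin and from 119 to 203 in multipara. Chgb, whose ratio over all Pdyn cells was under 1.5-fold, went from 701 to 1044 CPM in virgin and from 968 to 1869 in multipara. Mt1 went down in virgin from 1021 through 836, 627, 596 and 526 to 366 CPM, and in multipara from 1032 through 755, 661, 663 and 621 to 453 CPM. The steps between neighbouring classes were uneven and some went the other way. The highest class holds 18 virgin and 29 multipara cells, with median depths of 40057.5 and 32818 UMIs.

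**Figure D5:**
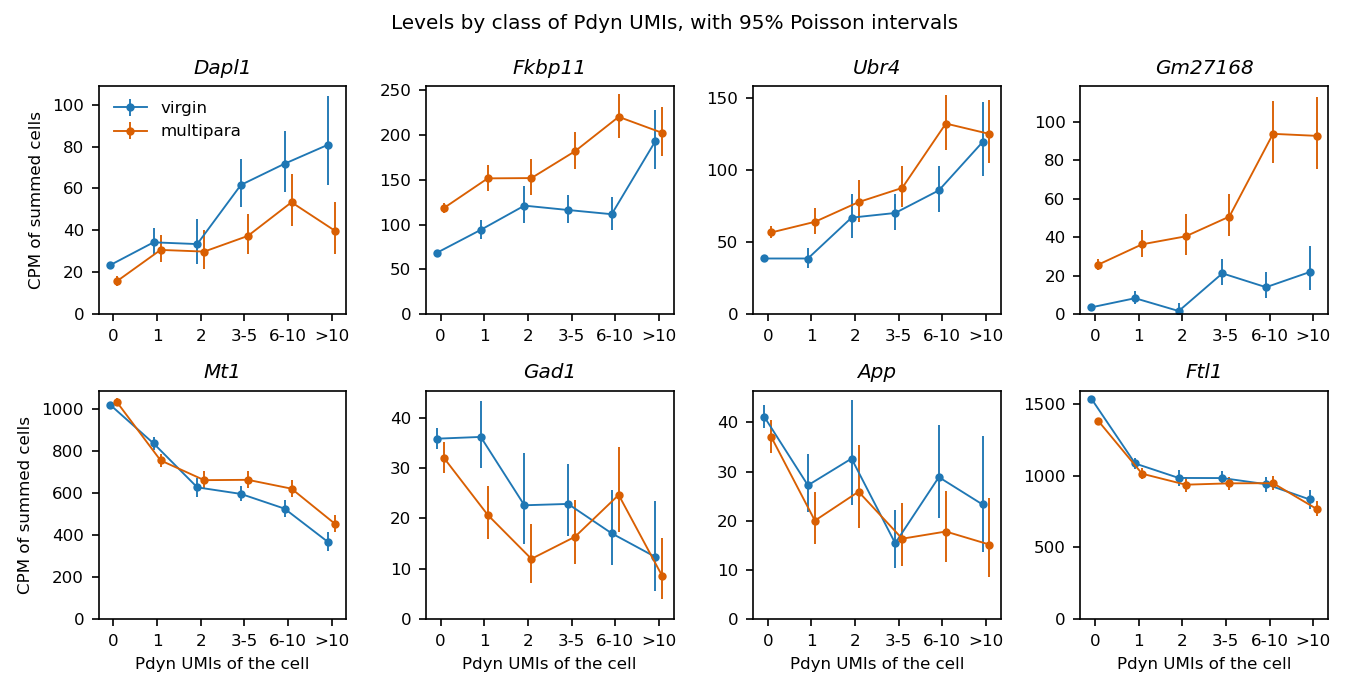
CPM of 8 genes (vertical, from 0) in beta cells with Nupr1 below the limit, summed by the number of Pdyn UMIs in the cell (horizontal), for virgin (blue) and multipara (orange) with 95% Poisson intervals. Dapl1, Fkbp11, Ubr4 and Gm27168 are higher and Mt1, Gad1, App and Ftl1 lower in the cells with more than 10 Pdyn UMIs than in those with none, in both libraries.

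Pdyn cells also lay near each other by the expression of other genes. Only Pdyn and comparison cells with at least 10000 UMIs were used, 1108 in virgin and 562 in multipara, each thinned to 10000 UMIs. With the genes of the rule left out, 25.0% of the 30 nearest neighbours of a virgin Pdyn cell were Pdyn cells. Of those of a comparison cell 8.56% were, where Pdyn cells were 11.9% of the cells used. In multipara the shares were 37.5% and 20.5%, where Pdyn cells were 26.7% of the cells used. Most neighbours of a Pdyn cell were thus cells without Pdyn in both libraries.

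Between the libraries, 74 of 5450 genes (1.36%) were at least 1.5-fold higher in multipara than in virgin Pdyn cells, and 96 (1.76%) at least 1.5-fold lower. In comparison cells 36 were higher and 43 lower by the same limit, and 18 and 16 genes passed it in both kinds of cell. The Pdyn cells held fewer summed UMIs, 5155593 and 5734505 against 30792684 and 13390383, so that counting error was larger in them. Fmo1, a flavin monooxygenase, was at 23.3 (19.3 to 27.8) CPM in virgin and 139.5 (130.0 to 149.5) CPM in multipara Pdyn cells, a log2 ratio of 2.58 (2.31 to 2.87), beside 2.14 (2.01 to 2.27) in comparison cells. It was thus higher in both kinds of multipara cell. Hmgcs1, of cholesterol synthesis, had log2 ratios of 1.06 and 1.05 in Pdyn and comparison cells, Gpx3 1.04 and 1.19, Hopx, a homeodomain protein, 0.79 and 0.65, Chgb 0.65 and 0.47, Rasd1 0.64 and 0.51, and Nfkbia, an inhibitor of NF-kappa B, 0.62 and 0.34. Npas4, an activity-induced factor, had 0.97 (0.71 to 1.23) in Pdyn cells and 0.45 (0.35 to 0.56) in comparison cells, intervals that did not overlap.

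Among genes of at least 50 CPM in Pdyn cells, the lowest ratio of multipara over virgin was that of Ttr, transthyretin, at 991 CPM in virgin and 585 in multipara, a log2 ratio of -0.76 beside -0.55 in comparison cells. Pde10a, a phosphodiesterase, had -0.70 and -0.37 in Pdyn and comparison cells, Il1r1, an interleukin 1 receptor, -0.61 and -0.45, Dapl1 -0.60 and -0.57, Slc2a2, the glucose transporter of beta cells, -0.56 and -0.50, and Cox6a2 -0.51 and -0.49. Syt7, a calcium sensor of exocytosis, had -0.55 (-0.78 to -0.32) in Pdyn cells and -0.03 (-0.14 to 0.08) in comparison cells, and Fam46a -0.53 (-0.69 to -0.37) and -0.06 (-0.16 to 0.05). The differences between the ratios of Pdyn and comparison cells were not tested. Pdyn itself was at 175 and 201 CPM in the virgin and multipara Pdyn cells, values that its own rule shaped.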

How the data were processed

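Single-cell RNA counts were analysed for 1 virgin and 1 multipara library of mouse islets. Per the labels and the submitters' processing notes, the authors deposited filtered count matrices, raw UMI counts per gene and barcode, made with Cell Ranger 3.1.0 on mm10 (GRCm38). Seurat 3.0 is named there for later steps and was not rerun. The libraries held 5463 virgin and 5075 multipara barcodes with 94853806 and 82503776 UMIs. Kept were 4391 and 3374 barcodes that had over 200 and under 6000 genes, under 60000 UMIs and a mitochondrial share under 10%. Counts were summed per cell group and library and scaled to CPM, and genes with a mean under 10 CPM over the 4 sums were left out. Intervals were computed with scipy 1.17.1, TMM factors with edgeR 4.0.16 in R 4.3.3, doublets with Scrublet in scanpy 1.11.5 (80 and 64 cells marked, kept in the main values) and neighbours from 20 components of 2000 genes with scikit-learn 1.9.0. The ratio step was tested on simulated data. The members and gene lists were chosen with earlier results of these data known.

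Genes were named by rule: the proposed markers, the opioid genes, the 15 highest and 15 lowest shared ratios among genes averaging at least 20 CPM, called members of each list with up to 6 others by level, and the 8 highest and 8 lowest ratios between libraries among genes of at least 50 CPM in Pdyn cells. Canx, Creld2, Pdia6, Gatm, Cib3, Hist3h2ba, Adam32 and the genes under 10 CPM fell outside it and were chosen after their values were seen. Alternatives covered scaling, depth, the limits on Pdyn, Nupr1 and level, the beta gate, doublets and the cell filter.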

Additional observations from a re-analysis of the deposited data

Results flagged for a closer look

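Pdyn was also found outside the beta cells compared, above the 1.01 CPM of alpha cells in both libraries. Cells with Sst at 5% or more and insulin under 5% of UMIs, the delta gate, had 20.8 (16.9 to 25.4) CPM in virgin and 40.3 (34.1 to 47.2) CPM in multipara. Of this gate, 14.4% of the 388 cells in virgin and 22.6% of the 337 in multipara had a Pdyn UMI, at median depths of 10577.5 and 10478 UMIs. These levels were close to those of all beta cells, 21.5 and 35.2 CPM. Cells with Ppy at 5% or more and insulin under 5% had 3.30 (1.85 to 5.45) and 7.13 (4.85 to 10.1) CPM. Cells with insulin at 20% or more and other hormones at 1% or more had 31.9 (27.4 to 36.8) and 57.3 (48.6 to 67.2) CPM. Beta cells with 5 or more Nupr1 UMIs had 5.49 (4.17 to 7.10) and 15.4 (13.8 to 17.1) CPM. In each of these gates the multipara value was the higher one.

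The ratios of Iapp and Chga, Pdyn over comparison cells, had opposite signs in the libraries with counting intervals that left out 0. Iapp had a log2 ratio of -0.169 (-0.175 to -0.162) in virgin and 0.014 (0.007 to 0.021) in multipara, and Chga 0.035 (0.019 to 0.050) in virgin and -0.037 (-0.054 to -0.019) in multipara. Under TMM scaling Iapp had -0.058 and 0.107 and Chga 0.145 and 0.057, so that the opposite signs of Chga depend on the scaling. The difference between the libraries was not tested, and these changes are small beside the 1.5-fold limit.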

How the results depend on the processing

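The number of genes called depended on scaling, depth and limits, while the single ratios checked mostly stayed within their counting intervals. These were the ratios of the proposed markers, the called genes and the 15 highest and 15 lowest. Other named genes and the ratios between libraries were not counted here. Over the alternatives, 1678 log2 ratios stayed within the counting interval of the reported value, which is wide for genes with few UMIs. Another 192 moved outside it and 2 called ratios changed sign: Msln in multipara, to 0.056 in cells without a Nupr1 UMI, and Npy in virgin, to -0.27 without the cell holding most of its UMIs. Against 20 higher and 47 lower genes in Pdyn cells, there were 24 lower under TMM, 31 and 21 under median-of-ratios factors, 66 higher without Ins1, Ins2 and Iapp in the total, 146 lower with each cell weighted equally, 9 and 15 with depth-matched comparison cells, 12 and 26 for cells with at least 1 Pdyn UMI, 74 lower for at least 4, 13 and 24 above 20 CPM, 212 and 495 with a floor of 10 UMIs, 2 and 6 at 2-fold, and 25 lower without Nupr1 UMIs. Against 74 higher and 96 lower genes in multipara Pdyn cells, there were 321 and 392 without Ins1, Ins2 and Iapp in the total, 115 higher with each cell weighted equally, 49 and 58 for at least 1 Pdyn UMI, 163 higher for at least 4, 27 and 27 above 20 CPM, 986 and 1234 with a floor of 10 UMIs, 11 and 10 at 2-fold, and 120 and 151 without Nupr1 UMIs. The share of Pdyn cells was 14.5% in virgin and 17.1% in multipara with at least 1 Pdyn UMI, 4.65% and 6.08% with at least 4, 14.7% in multipara with no limit on Nupr1, 6.56% and 7.46% without any Nupr1 UMI, and 4.04% and 6.81% after thinning. The multipara share stayed the higher one under each of these. The alternatives without Nupr1 UMIs and without the richest cell were added after the data were seen. Except where an alternative's own limit sets how many genes or cells enter, the cause of these shifts was not tested. Genes compared numbered 5450 in the main values, 3178 above 20 CPM and 13379 with a floor of 10 UMIs. Without Ins1, Ins2 and Iapp in the total, the floor of 10 CPM admitted 8687 genes. All 20 higher genes and 22 of the 47 lower genes were still called there. Counts under these settings are therefore not on the same base. How far the added genes account for the 66, 321 and 392 was not tested. No paired analysis was possible because each group is a single library. Depth limits genes under 10 CPM, where Pdyn cells hold few UMIs.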

Other observations

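Below the floor of 10 CPM, single genes had high ratios in Pdyn cells. They were chosen after their values were seen and rest on few UMIs. Nptx2, a neuronal pentraxin, had 25 UMIs in virgin Pdyn cells against 11 in the comparison cells, and 46 against 20 in multipara, log2 ratios of 3.76 (2.69 to 4.93) and 2.43 (1.64 to 3.26). Oxtr, the oxytocin receptor, had 24 UMIs in virgin Pdyn cells against 15 in the comparison cells, and 36 against 30 in multipara, log2 ratios of 3.26 (2.27 to 4.29) and 1.49 (0.75 to 2.24), or 3.98 and 0.86 after depth matching. In cells thinned to 10000 UMIs, 0.758% of virgin and 4.00% of multipara Pdyn cells had an Oxtr UMI, against 0.512% and 1.46% of comparison cells. Pappa2, a protease of insulin-like growth factor binding proteins, had 91 UMIs in virgin Pdyn cells against 124 in the comparison cells, and 62 against 26 in multipara, log2 ratios of 2.13 (1.73 to 2.53) and 2.48 (1.79 to 3.20). Dcx, doublecortin, a microtubule protein of young neurons, had 43 UMIs in virgin Pdyn cells against 94 in the comparison cells, and 47 against 43 in multipara, log2 ratios of 1.45 (0.89 to 1.99) and 1.35 (0.72 to 1.98). Dgkb, a diacylglycerol kinase, had 22 UMIs in virgin Pdyn cells against 46 in the comparison cells, and 34 against 23 in multipara, log2 ratios of 1.51 and 1.79. Mt3, a metallothionein, had 34 UMIs in virgin Pdyn cells against 43 in the comparison cells, and 19 against 18 in multipara, log2 ratios of 2.24 (1.55 to 2.92) and 1.30 (0.29 to 2.32), or 1.63 and 0.59 after depth matching, and 1 virgin Pdyn cell held 38.2% of its UMIs there. Vim, vimentin, had log2 ratios of 2.33 and 1.51, and 1 Pdyn cell held 81.5% of its UMIs in virgin and 1 held 81.8% in multipara. Stmn1, stathmin, had 1.23 and 1.91, with 86.4% and 69.0% in 1 cell.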
